A study of Mus musculus with 12 samples.

Results

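The 10 genes described here encode receptors that detect microbial or cell-derived products, and their central adaptor. They were measured in cells sorted as macrophages from mouse hearts after myocardial infarction. In the CCR2hi libraries described below, fibroblast genes held more of the counts than macrophage genes. The 10 genes were chosen by symbol: Cd14, Tlr2, Tlr4, Tlr7, Tlr9, Tlr13, Myd88, Clec7a, Nod2 and Nlrp3. Earlier results of these data were known when they and the pathway lists below were chosen. Counts of called genes set beside the shares of all genes are therefore descriptions only. All 10 were found among the 53801 genes of the deposited table, each on 1 row, and all 10 were among the 14964 genes that passed the filter on low counts. RNA was measured by bulk sequencing in 4 groups of 3 libraries: Bhlhe41Cre CCR2low, WT CCR2low, Bhlhe41Cre CCR2hi and WT CCR2hi. Bhlhe41Cre stands for Bhlhe41dTomato-Cre+/- mice, which carry 1 allele with dTomato and Cre at Bhlhe41, a transcriptional repressor. WT mice are wild type. All mice are given as male C57BL/6N mice, and in all of them the left anterior descending coronary artery was tied, so no group comes from a heart without infarction. Age, time after infarction, and the number of animals behind a library are not given in the labels. What Cre acted on in these animals is not given either. CCR2, the receptor for the chemokine CCL2, was the basis of the sort into the low and the high gate.

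Toll-like receptors (TLRs) are membrane receptors whose outer part binds a microbial product and whose inner part recruits adaptors, above all MyD88, which passes the signal to NF-kB. TLR2 and TLR4 work at the cell surface with the help of CD14, while TLR7, TLR9 and TLR13 bind nucleic acids in endosomes. Dectin-1 (Clec7a) binds fungal glucans and signals through Syk and CARD9, and NOD2 and NLRP3 act in the cytosol, NLRP3 by assembling an inflammasome that activates caspase-1. In the infarcted heart, such receptors are known to respond to material released by dying cells.

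Total counts ran from 17.7 to 20.83 M per library (1 M is 1000000). Bhlhe41 itself was at 6.71, 8.65 and 3.05 TPM in Bhlhe41Cre CCR2low libraries, against 12.8, 9.27 and 9.48 TPM in WT CCR2low libraries. It was at 2.69, 3.83 and 2.18 TPM in Bhlhe41Cre CCR2hi libraries, against 17.3, 15.6 and 10.3 TPM in WT CCR2hi libraries. Every Bhlhe41Cre library was thus below every WT library of its gate. The label of male mice was not met by all libraries: Xist, the X-inactivation RNA of female cells, had 1403 to 3699 counts in the 6 Bhlhe41Cre libraries, against 0 to 3 in the 6 WT libraries. Counts of Y-linked genes summed to 105 to 1446 in Bhlhe41Cre libraries, against 668 to 1741 in WT libraries, with the lowest sums, 105 and 182, in the Bhlhe41Cre libraries numbered 3. All 6 Bhlhe41Cre libraries thus held both Xist and Y-linked counts, so they are not female libraries set against male ones. The source of this mixed signal is not given. Sex content and genotype therefore cannot be told apart, which bears on Tlr7 and Tlr13 since both are X-linked.

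The gates differed in cell content. The 15 macrophage identity genes, all with counts in every library, held 1.99 to 2.286% of counts in Bhlhe41Cre CCR2low and 2.552 to 2.577% in WT CCR2low, but 0.4692 to 0.6403% in Bhlhe41Cre CCR2hi and 0.1564 to 0.3578% in WT CCR2hi. The lowest of these was WT CCR2hi replicate 1. The 12 pan-leukocyte genes, such as Ptprc and Coro1a, followed the same order, with 0.2229 to 0.316% in Bhlhe41Cre CCR2hi and 0.07533 to 0.1479% in WT CCR2hi. The 13 fibroblast genes, led by collagens, held 4.297 to 5.445% in Bhlhe41Cre CCR2hi and 7.795 to 8.733% in WT CCR2hi, against 0.2855 to 0.5994% and 0.5717 to 0.9157% in the CCR2low groups of Bhlhe41Cre and WT. Per count, the CCR2hi libraries thus held more fibroblast and less leukocyte gene signal than the CCR2low libraries. The 11 neutrophil genes held 0.1046 to 0.1608% in Bhlhe41Cre CCR2hi, against 0.006332 to 0.01677% in WT CCR2hi. In bulk RNA, fewer cells of a type and less RNA per cell cannot be told apart.

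**Figure D1:**
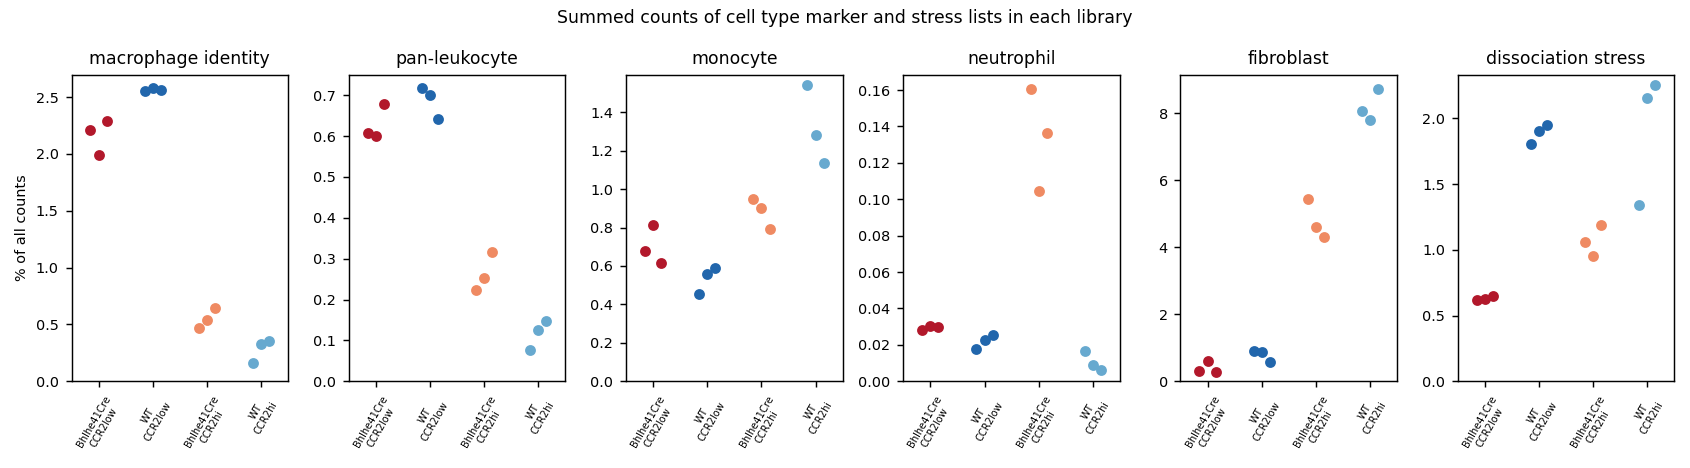
Share of all counts (%) held by 5 cell type marker lists and a dissociation stress list, 1 point per library, 3 libraries per group. Macrophage and leukocyte genes were lowest and fibroblast genes highest in the CCR2hi libraries, above all in WT, and neutrophil genes stood highest in the 3 Bhlhe41Cre CCR2hi libraries.

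For that reason 3 scales were used: the usual TMM scaling over all genes, and fits in which the libraries were scaled to equal levels of the 12 pan-leukocyte or the 15 macrophage identity genes, none of which is a member. On the pan-leukocyte scale the median log2 fold change of all genes moved by -2.76 between the gates of WT and by -1.45 between the gates of Bhlhe41Cre. It moved by -1.24 between genotypes in CCR2hi, and by only 0.07 between genotypes in CCR2low. The 10 genes' values on all 3 scales are in the plot of log2 fold changes, and the text gives the pan-leukocyte value where it bears on a call. A value without a named scale is from TMM, tested by edgeR over all 14964 genes with Benjamini-Hochberg adjustment.

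**Figure D2:**
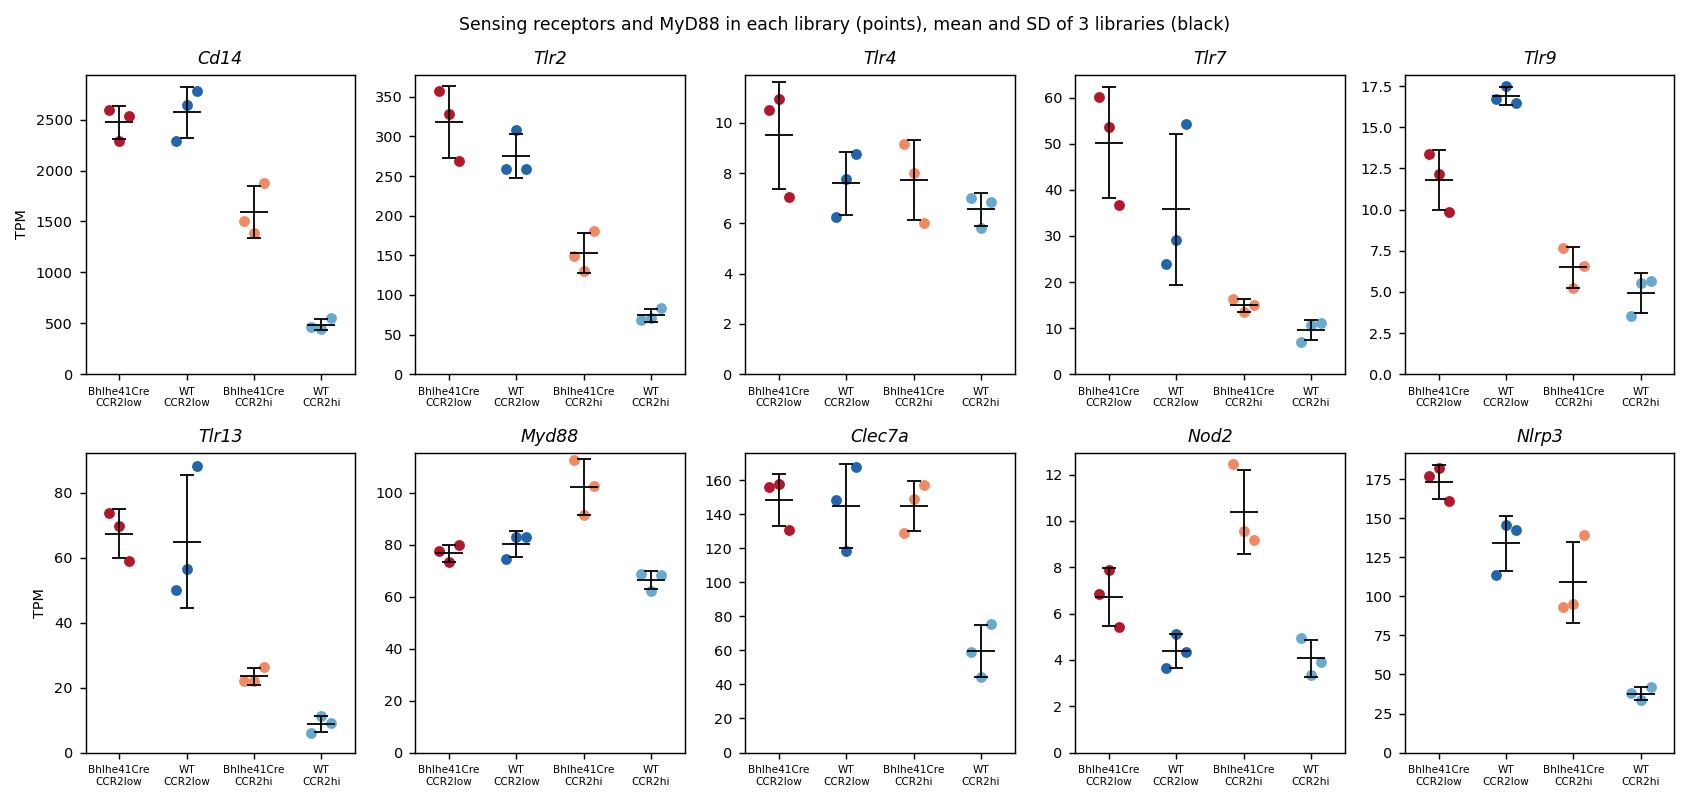
TPM (authors' values) of each gene, 1 point per library, with the mean and SD of 3 libraries in black. Cd14, Tlr2, Tlr7, Tlr9, Tlr13 and Nlrp3 were highest in the CCR2low groups, and Myd88 and Nod2 in Bhlhe41Cre CCR2hi. All 10 genes had their lowest mean in WT CCR2hi, where only Tlr4 and Tlr9 overlapped Bhlhe41Cre CCR2hi in TPM. On TMM-scaled counts, 9 of the 10 lay wholly higher in Bhlhe41Cre CCR2hi than in WT CCR2hi, and 0 wholly lower. Of all genes tested, 22.9% lay wholly higher and 25.6% wholly lower.

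The upstream sequences of 3 genes are shown, since they hold a match to a motif of factors that work in these pathways, and since Tlr2 and Nlrp3 had like courses over the 4 groups and Myd88 another. The 250 bases before the RefSeq start of the gene (GRCm38.p6, 5′ to 3′ on the strand of the gene) were at hand for 7 of the 10 genes. Both strands were searched for GGGA and CC with any 4 bases between them (NF-kB), GAAA and GAAA with any 2 bases between them (the core of an interferon response element), TGANTCA (AP-1), GAGGAAGT (PU.1) and CACGTG (the E-box bound by BHLHE41). Capitals mark the match. The windows lie at chr3:83841609-83841858 (minus strand) for Tlr2, chr11:59541319-59541568 (plus strand) for Nlrp3 and chr9:119340019-119340268 (minus strand) for Myd88.
Tlr2: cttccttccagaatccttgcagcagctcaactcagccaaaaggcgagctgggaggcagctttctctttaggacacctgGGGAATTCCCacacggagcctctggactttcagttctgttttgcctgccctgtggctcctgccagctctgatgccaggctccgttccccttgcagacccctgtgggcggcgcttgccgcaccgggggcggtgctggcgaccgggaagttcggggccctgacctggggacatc
Nlrp3: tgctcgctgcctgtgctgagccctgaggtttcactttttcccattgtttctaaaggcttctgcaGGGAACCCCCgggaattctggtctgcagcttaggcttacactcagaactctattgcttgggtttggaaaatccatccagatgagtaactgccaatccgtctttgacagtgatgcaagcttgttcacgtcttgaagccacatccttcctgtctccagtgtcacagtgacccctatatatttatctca
Myd88: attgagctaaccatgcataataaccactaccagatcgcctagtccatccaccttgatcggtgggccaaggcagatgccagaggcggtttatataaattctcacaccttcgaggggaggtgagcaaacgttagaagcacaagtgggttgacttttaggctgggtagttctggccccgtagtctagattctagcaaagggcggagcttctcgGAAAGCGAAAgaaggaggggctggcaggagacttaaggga

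The NF-kB match of Tlr2 lay 172 to 163 bases before the start, and that of Nlrp3, in 1 of its 2 listed windows, 186 to 177 bases before it. The same motif is found in 17.6% of 32841 mouse windows of this length, so its presence in 2 of 7 genes is a description only. The interferon element of Myd88 lay 40 to 31 bases before the start, and this motif is found in 2.98% of all windows. Tlr9 held an AP-1 match 58 to 52 bases before its start, a motif found in 6.75% of windows. Neither the PU.1 motif nor the E-box was in any of the 7 genes' windows, against 2.44% and 6.02% of all windows. No match overlapped another. These distances hold for the RefSeq starts only. The GENCODE gene spans of Myd88 and Tlr2 printed below cover the whole window of Myd88 and part of that of Tlr2.

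Cd14 (18:36725067-36726798), the co-receptor that hands lipopolysaccharide to TLR4 and also serves TLR2, was the most abundant of the 10 transcripts per length in every group. It stood at 2593, 2291 and 2537 TPM in Bhlhe41Cre CCR2low, against 2288, 2644 and 2777 TPM in WT CCR2low. In CCR2hi it stood at 1509, 1386 and 1874 TPM in Bhlhe41Cre, against 462, 447 and 553 TPM in WT. The CCR2low groups overlapped, every CCR2hi library was below them, and the CCR2hi genotypes were wide apart. Cd14 was higher in CCR2low than in CCR2hi, with a log2 fold change of 0.88 ± 0.16 (SE; adjusted p = 0.000477) in Bhlhe41Cre and 2.75 ± 0.17 (adjusted p = 7.17e-08) in WT. Between genotypes it rose in Bhlhe41Cre CCR2hi by 1.85 ± 0.17 (adjusted p = 7.6e-06) and was at -0.02 (adjusted p = 0.932) in CCR2low. It was the 1 member whose rise in CCR2hi was also called on both cell scales, at 0.61 (adjusted p = 0.0356) on the pan-leukocyte and 0.75 (adjusted p = 0.0258) on the macrophage scale. On the pan-leukocyte scale the gate difference was -0.56 in Bhlhe41Cre and 0.02 in WT.

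Tlr2 (3:83836272-83841767), the receptor for bacterial lipoproteins whose upstream sequence is printed above, came second in every group. It was at 357, 328 and 269 TPM in Bhlhe41Cre CCR2low, against 259, 308 and 259 TPM in WT CCR2low. CCR2hi libraries had 149, 130 and 181 TPM in Bhlhe41Cre, against 68.7, 70.9 and 83.0 TPM in WT. Levels thus fell in the order Bhlhe41Cre CCR2low, WT CCR2low, Bhlhe41Cre CCR2hi, WT CCR2hi, of which the first pair overlapped. Bhlhe41Cre CCR2hi lay below WT CCR2low by 1.05 on the log2 scale (-1.05 ± 0.15, adjusted p = 7.13e-05). Tlr2 was higher in CCR2low by 1.28 ± 0.15 (adjusted p = 1.07e-05) in Bhlhe41Cre and by 2.25 ± 0.16 (adjusted p = 1.29e-07) in WT. It rose in Bhlhe41Cre CCR2hi by 1.20 ± 0.15 (adjusted p = 9.78e-05), a difference of -0.03 on the pan-leukocyte scale. In CCR2low the genotype difference was 0.24 ± 0.15 (adjusted p = 0.224), and it was called without Bhlhe41Cre CCR2low replicate 3 (0.42, adjusted p = 0.0487) and with only the 2 CCR2low groups in the fit (0.39, adjusted p = 0.0365).

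Tlr4 (4:66827584-66930284), the lipopolysaccharide receptor, was low and varied least between groups among the TLRs. It was at 10.5, 11.0 and 7.07 TPM in Bhlhe41Cre CCR2low, against 6.25, 7.77 and 8.75 TPM in WT CCR2low. CCR2hi cells had 9.15, 8.02 and 6.03 TPM in Bhlhe41Cre, against 7.03, 5.81 and 6.86 TPM in WT. All neighbouring groups in the order of levels overlapped in TPM. On counts it was higher in CCR2low by 0.57 ± 0.17 (adjusted p = 0.0113) in Bhlhe41Cre and by 0.60 ± 0.17 (adjusted p = 0.0079) in WT, but on log2(TPM + 1) these were 0.26 (adjusted p = 0.299) and 0.18 (adjusted p = 0.473). The Bhlhe41Cre call was also lost without Bhlhe41Cre CCR2hi replicate 3 (adjusted p = 0.0664). The WT call was lost without WT CCR2hi replicate 1 (adjusted p = 0.139) or Bhlhe41Cre CCR2hi replicate 1 or 2 (adjusted p = 0.0667 and 0.0825). The genotype difference was 0.30 ± 0.17 (adjusted p = 0.17) in CCR2low and 0.33 ± 0.17 (adjusted p = 0.159) in CCR2hi. In CCR2low it was called without Bhlhe41Cre CCR2low replicate 3 (0.56, adjusted p = 0.0233). Scaled to the pan-leukocyte genes, Tlr4 was lower in CCR2low, at -0.89 (adjusted p = 0.0206) in Bhlhe41Cre and -2.13 (adjusted p = 1.73e-05) in WT. The median of all genes on that scale was lower still, at -1.45 and -2.75, with 80.4% and 92.6% of all genes called lower.

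Tlr7 (X:167304929-167330558), the endosomal receptor for single-stranded RNA, was at 60.1, 53.7 and 36.8 TPM in Bhlhe41Cre CCR2low, against 23.8, 29.1 and 54.4 TPM in WT CCR2low. It was at 16.3, 13.5 and 15.1 TPM in Bhlhe41Cre CCR2hi, against 7.04, 10.6 and 11.2 TPM in WT CCR2hi. WT CCR2low replicate 3 stood apart from its group and among the Bhlhe41Cre libraries. Tlr7 was higher in CCR2low by 2.14 ± 0.25 (adjusted p = 8.08e-06) in Bhlhe41Cre and by 2.33 ± 0.25 (adjusted p = 3.4e-06) in WT. In Bhlhe41Cre it was the 1 member still called higher in CCR2low on the pan-leukocyte scale, at 0.72 (adjusted p = 0.0393). The genotype difference in CCR2low was 0.56 ± 0.24 (adjusted p = 0.0735), but 0.86 (adjusted p = 0.00886) without WT CCR2low replicate 3 and 0.81 (adjusted p = 0.0314) without Bhlhe41Cre CCR2low replicate 3. With all libraries it was also called by DESeq2 (0.62, adjusted p = 0.0441) and limma-voom (0.59, adjusted p = 0.045). In CCR2hi it was 0.75 ± 0.25 (adjusted p = 0.0334), a call lost when any of 5 of the 6 CCR2hi libraries was left out (adjusted p from 0.0571 without WT replicate 2 to 0.13 without WT replicate 1, with 0.0765, 0.0756 and 0.117 without Bhlhe41Cre replicates 1, 2 and 3). WT CCR2low lay above Bhlhe41Cre CCR2hi, with a difference of -1.59 ± 0.24 (adjusted p = 0.000109) for the second over the first.

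Tlr9 (9:106222598-106226883), the receptor for unmethylated CpG DNA, was highest in the 3 WT CCR2low libraries. It was at 13.4, 12.2 and 9.83 TPM in Bhlhe41Cre CCR2low, against 16.7, 17.5 and 16.5 TPM in WT CCR2low. It was at 7.65, 5.22 and 6.58 TPM in Bhlhe41Cre CCR2hi, against 3.54, 5.57 and 5.68 TPM in WT CCR2hi. The CCR2low genotypes did not overlap, while the CCR2hi genotypes did. Tlr9 was higher in CCR2low by 1.09 ± 0.19 (adjusted p = 0.000226) in Bhlhe41Cre and by 2.13 ± 0.19 (adjusted p = 7.15e-07) in WT. The genotype difference was -0.49 ± 0.18 (adjusted p = 0.0432) in CCR2low and 0.55 ± 0.19 (adjusted p = 0.0416) in CCR2hi. Both calls are weak. That in CCR2low was lost in 9 of the 12 fits that left out 1 library. It was lost when any 1 of the 3 Bhlhe41Cre CCR2low libraries (adjusted p = 0.0666, 0.105 and 0.269 for replicates 1, 2 and 3) or WT CCR2low replicate 1 or 2 (adjusted p = 0.114 and 0.11) was left out, with a value of -0.29 without Bhlhe41Cre CCR2low replicate 3. Without Bhlhe41Cre CCR2hi replicate 1, 2 or 3 or WT CCR2hi replicate 1 the value was -0.30 each time (adjusted p = 0.216, 0.209, 0.235 and 0.096). With all libraries in, it was also lost with RLE scaling (adjusted p = 0.081) and DESeq2 (adjusted p = 0.0655). That in CCR2hi was lost without Bhlhe41Cre CCR2hi replicate 1 or 3 (adjusted p = 0.162 and 0.105) or WT CCR2hi replicate 1 or 2 (adjusted p = 0.133 and 0.0526), and without Bhlhe41Cre CCR2low replicate 1 or WT CCR2low replicate 1 or 2 (adjusted p = 0.0507, 0.0532 and 0.0574). Its CCR2hi value turned, on the pan-leukocyte scale, to -0.59 (adjusted p = 0.0438), where the median of all genes was -1.26 and 76.5% were called lower.

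Tlr13 (X:106143204-106160493), the receptor for bacterial ribosomal RNA, varied most among the 10 genes over the 12 libraries, with an SD of 1.46 on the log2 CPM scale. It was at 73.8, 69.7 and 59.0 TPM in Bhlhe41Cre CCR2low, against 50.1, 56.6 and 88.2 TPM in WT CCR2low. It was at 22.1, 21.9 and 26.5 TPM in Bhlhe41Cre CCR2hi, against 6.13, 11.2 and 8.98 TPM in WT CCR2hi. WT CCR2low replicate 3 was the highest of all libraries, the CCR2low genotypes overlapped, and the CCR2hi genotypes did not. Tlr13 was higher in CCR2low by 1.75 ± 0.21 (adjusted p = 1.33e-05) in Bhlhe41Cre and by 3.23 ± 0.23 (adjusted p = 1.35e-07) in WT. It rose in Bhlhe41Cre CCR2hi by 1.58 ± 0.22 (adjusted p = 0.000169), against 0.41 on the pan-leukocyte scale, where it was not called, and was at 0.11 (adjusted p = 0.709) in CCR2low. Bhlhe41Cre CCR2hi lay below WT CCR2low (-1.65 ± 0.21, adjusted p = 2.89e-05).

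Myd88 (9:119335934-119341411), the adaptor of all the TLRs above, was the most even member, with an SD of 0.32 on the log2 CPM scale. It was at 77.4, 73.2 and 79.7 TPM in Bhlhe41Cre CCR2low, against 74.5, 83.1 and 83.1 TPM in WT CCR2low. It was at 113, 91.3 and 103 TPM in Bhlhe41Cre CCR2hi, against 68.7, 62.3 and 68.3 TPM in WT CCR2hi. Bhlhe41Cre CCR2hi was above every other library, although on counts it did not differ detectably from WT CCR2low (0.14 ± 0.12, adjusted p = 0.347). Myd88 rose in Bhlhe41Cre CCR2hi by 0.76 ± 0.12 (adjusted p = 0.000572) and was at -0.03 (adjusted p = 0.875) in CCR2low. Between the gates it was at -0.17 ± 0.12 (adjusted p = 0.274) in Bhlhe41Cre and higher in CCR2low by 0.62 ± 0.12 (adjusted p = 0.000696) in WT. The Bhlhe41Cre gate difference was called lower on log2(TPM + 1) (-0.40, adjusted p = 0.00605). Relative to leukocyte genes, by the pan-leukocyte scaling, Myd88 was at -1.63 in Bhlhe41Cre and -2.14 in WT between the gates, and at -0.48 between genotypes in CCR2hi. The medians of all genes were -1.45, -2.75 and -1.26 in the same comparisons. Of its exon bases, 290 (11.3%) overlap Acaa1a on the other strand, and the strand protocol is not given, so reads there cannot be told apart.

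Clec7a (6:129461591-129472779), which encodes Dectin-1 and is typed as a polymorphic pseudogene in GENCODE release 21, had near equal levels in 3 of the 4 groups. It was at 156, 157 and 130 TPM in Bhlhe41Cre CCR2low, against 148, 119 and 168 TPM in WT CCR2low. It was at 129, 149 and 157 TPM in Bhlhe41Cre CCR2hi, against 58.8, 44.5 and 75.4 TPM in WT CCR2hi. Only the WT CCR2hi libraries stood apart, all of them lower. Clec7a rose in Bhlhe41Cre CCR2hi by 1.56 ± 0.21 (adjusted p = 0.000128) and was at 0.11 (adjusted p = 0.696) in CCR2low. The gate difference was 0.27 ± 0.20 (adjusted p = 0.268) in Bhlhe41Cre and 1.73 ± 0.21 (adjusted p = 8.71e-06) in WT, and WT CCR2low and Bhlhe41Cre CCR2hi were not called apart (-0.17, adjusted p = 0.49). Clec7a was lower in CCR2low on the pan-leukocyte scale, at -1.15 in Bhlhe41Cre and -1.003 in WT, and at 0.33 between genotypes in CCR2hi, where it was not called. All genes had medians of -1.45, -2.75 and -1.26 in these comparisons.

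Nod2 (8:88647315-88688474), the cytosolic sensor of bacterial muramyl dipeptide, was among the lowest members and the 1 member called higher in Bhlhe41Cre in both gates under TMM. It was at 6.85, 7.90 and 5.41 TPM in Bhlhe41Cre CCR2low, against 3.64, 5.12 and 4.35 TPM in WT CCR2low. It was at 12.5, 9.56 and 9.16 TPM in Bhlhe41Cre CCR2hi, against 4.94, 3.35 and 3.93 TPM in WT CCR2hi. All Bhlhe41Cre libraries were above all WT libraries. Nod2 rose in Bhlhe41Cre by 0.63 ± 0.17 (adjusted p = 0.00929) in CCR2low and by 1.51 ± 0.17 (adjusted p = 4.73e-05) in CCR2hi. The CCR2low call held in all 12 fits that left out 1 library. It was lost on both cell scales, although the CCR2low value was not smaller there. That value was 0.71 (adjusted p = 0.174) on the pan-leukocyte and 0.75 (adjusted p = 0.164) on the macrophage scale. The CCR2hi value fell to 0.25 on the pan-leukocyte scale, where it was not called. Between the gates Nod2 was at -0.44 ± 0.17 (adjusted p = 0.0395) in Bhlhe41Cre and 0.44 ± 0.17 (adjusted p = 0.0408) in WT. With the replicate number as a block the Bhlhe41Cre value was -0.43 (adjusted p = 0.0607). Both gate calls were lost with RLE scaling (adjusted p = 0.0691 in Bhlhe41Cre and 0.0583 in WT), DESeq2 (0.0606 and 0.0526) and no filter (0.258 and 0.0982), and on log2(TPM + 1) the WT value was 0.0847 (adjusted p = 0.727). The Bhlhe41Cre call was also lost without Bhlhe41Cre CCR2low replicate 1 or 3 (adjusted p = 0.0895 and 0.135), Bhlhe41Cre CCR2hi replicate 1 or 2 (adjusted p = 0.185 and 0.0597) or WT CCR2hi replicate 3 (adjusted p = 0.051). The WT call was lost in 10 of the 12 fits that left out 1 library, with adjusted p from 0.0505 without Bhlhe41Cre CCR2low replicate 1 to 0.289 without Bhlhe41Cre CCR2hi replicate 2. It held without Bhlhe41Cre CCR2low replicate 2 or WT CCR2low replicate 1.

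Nlrp3 (11:59541568-59566956), the inflammasome sensor, was at 177, 182 and 161 TPM in Bhlhe41Cre CCR2low, against 113, 146 and 142 TPM in WT CCR2low. It was at 93.1, 95.1 and 139 TPM in Bhlhe41Cre CCR2hi, against 38.0, 33.4 and 41.9 TPM in WT CCR2hi. Neither pair of genotypes overlapped. Nlrp3 rose in Bhlhe41Cre CCR2hi by 1.65 ± 0.18 (adjusted p = 3.72e-05), and in CCR2low the difference of 0.38 ± 0.18 (adjusted p = 0.101) was not called. That difference was called with only the 2 CCR2low groups in the fit (0.53, adjusted p = 0.00764), without a filter (0.52, adjusted p = 0.0155) and by DESeq2 (0.44, adjusted p = 0.046). It was higher in CCR2low by 0.90 ± 0.18 (adjusted p = 0.000751) in Bhlhe41Cre and by 2.18 ± 0.19 (adjusted p = 4.75e-07) in WT. Bhlhe41Cre CCR2hi was below WT CCR2low (-0.53 ± 0.18, adjusted p = 0.0217), though their TPM ranges overlap. Pan-leukocyte scaling put the gate difference at -0.51 in Bhlhe41Cre and -0.57 in WT, and the genotype difference in CCR2hi at 0.38, with no call.

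**Figure D3:**
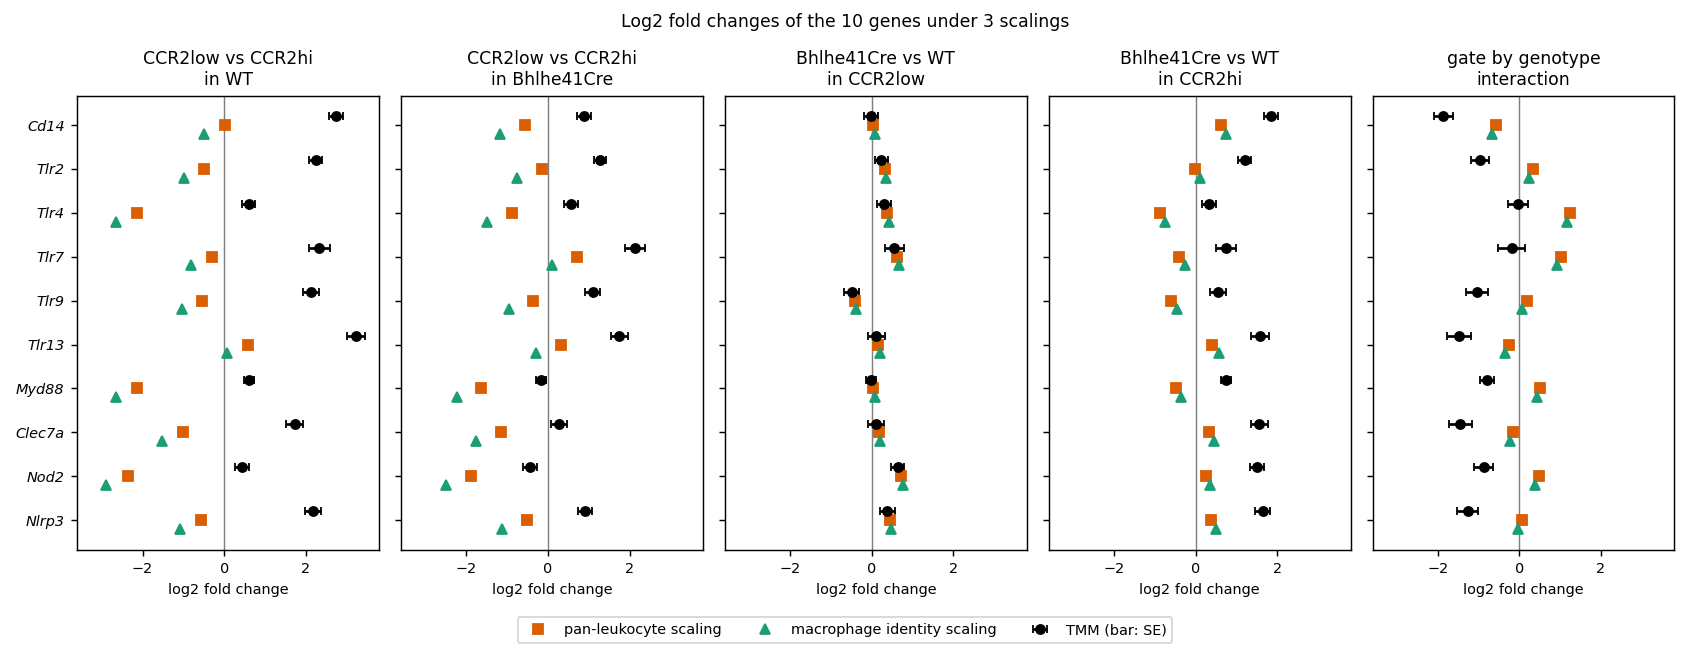
Log2 fold change of each gene in the 5 comparisons, under TMM (black, bar is the SE), pan-leukocyte scaling (orange) and macrophage identity scaling (green). The gate differences lie right of 0 under TMM, except for Myd88 and Nod2 in Bhlhe41Cre, and mostly left of 0 on the cell scales. The genotype differences in CCR2low barely move between scales.

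Between the gates, all 10 genes were higher in CCR2low in WT, where 29.8% of all genes tested were called higher and 30.0% lower. In Bhlhe41Cre 7 were higher and 1 (Nod2) was lower, against 24.9% and 29.1% of all genes. Without WT CCR2hi replicate 1, the library lowest in macrophage genes, 8 were called in WT, and without both Bhlhe41Cre libraries numbered 3, 7 in Bhlhe41Cre, all higher. The members' median log2 fold change was 0.89 in Bhlhe41Cre and 2.15 in WT, beside -0.01 and 0.01 for all genes. The 12 pan-leukocyte genes had medians of 1.49 and 2.79. On the pan-leukocyte scale 1 member was higher and 5 were lower in CCR2low in Bhlhe41Cre, with 1.56% and 80.4% of all genes called higher and lower. In WT none was higher and 4 were lower, with 1.39% and 92.6% of all genes. The part of leukocyte RNA content in the gate differences was not tested beyond this scaling.

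Between genotypes in CCR2hi, 9 of the 10 genes rose in Bhlhe41Cre and none fell, with 16.2% and 15.9% of all genes called higher and lower. Without WT CCR2hi replicate 1, 7 were called, and without both Bhlhe41Cre libraries numbered 3, 8. The members' median log2 fold change was 1.36, beside -0.03 for all genes and 1.16 for both the pan-leukocyte and the macrophage identity genes. On the pan-leukocyte scale 1 was higher (Cd14) and 2 were lower (Tlr4 at -0.87 and Tlr9), with 1.56% and 76.5% of all genes called higher and lower. Neutrophil genes moved with this comparison: 10 of 11 rose, with a median of 3.25, and 7 of 11 were still called on the pan-leukocyte scale. Monocyte genes rose for 6 of 11 and fell for 1, with a median of 1.65, although their summed share was lower, at 0.7925 to 0.9499% in Bhlhe41Cre CCR2hi against 1.138 to 1.542% in WT CCR2hi. A sum follows the genes with the most counts, and in WT CCR2hi it exceeded the pan-leukocyte share of 0.07533 to 0.1479%. The summed share is therefore not read as monocyte content. Dissociation stress genes rose for 2 of 12 and fell for 8, with a median of -0.94 and a summed share of 0.9504 to 1.185% in Bhlhe41Cre CCR2hi against 1.338 to 2.252% in WT CCR2hi. The part of these 3 lists in the members' rise was not tested. In CCR2low, 1 gene rose (Nod2) and 1 fell (Tlr9), with 16.4% and 26.7% of all genes called higher and lower, so the members' share is no greater than the background. That background depends on the fit: 38.0% of the called genes were higher, against 53.3% with only the 2 CCR2low groups in the fit, 52.4% without a filter, 51.8% without Bhlhe41Cre CCR2low replicate 3, and 56.8%, 56.4%, 56.5% and 55.5% without Bhlhe41Cre CCR2hi replicate 1, 2 or 3 or WT CCR2hi replicate 1. The members' median there was 0.17, beside -0.18 for all genes. The members' count went to between 1 and 5 when 1 library was left out. It was 4 or 5 without Bhlhe41Cre CCR2hi replicate 1, 2 or 3 or WT CCR2hi replicate 1 (5, 4, 5 and 5), which are not in the comparison but whose removal moved the median of all genes by 0.188 to 0.19. In those fits Tlr2, Tlr7 and Nlrp3 were called higher, at 0.43, 0.74 and 0.57, and in 3 of the 4, all but that without Bhlhe41Cre CCR2hi replicate 2, Tlr4 as well, at 0.48. Leaving out Bhlhe41Cre CCR2low replicate 3 gave 4, WT CCR2low replicate 3 gave 3, and replicate 1 or 2 of either CCR2low group gave 1. Without both Bhlhe41Cre libraries numbered 3 it was 2, Nod2 and Tlr4 (0.40, adjusted p = 0.0343), both higher. Dissociation stress genes were lower in Bhlhe41Cre CCR2low for 10 of 12 genes, with a summed share of 0.6158 to 0.65% against 1.806 to 1.949% in WT CCR2low, and their part was not tested.

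The gate difference itself depended on genotype for 8 of the 10 genes, all in the direction of a smaller or more negative CCR2low minus CCR2hi difference in Bhlhe41Cre than in WT. The interaction on the log2 scale was -1.87 ± 0.23 for Cd14 (adjusted p = 0.000808), -1.48 for Tlr13 (adjusted p = 0.00869), -1.45 for Clec7a (adjusted p = 0.00761) and -1.27 for Nlrp3 (adjusted p = 0.00795). It was -1.04 for Tlr9 (adjusted p = 0.0233), -0.97 for Tlr2 (adjusted p = 0.0129), -0.88 for Nod2 (adjusted p = 0.0314) and -0.78 for Myd88 (adjusted p = 0.013). Tlr7 (-0.19, adjusted p = 0.744) and Tlr4 (-0.03, adjusted p = 0.949) were not called. Of all genes 4.74% were called higher and 7.85% lower, and 8 of the 12 pan-leukocyte genes were lower too. On the macrophage scale no member was called and on the pan-leukocyte scale only Tlr4 was, in the other direction (1.24, adjusted p = 0.0379). The count fell to 3 without Bhlhe41Cre CCR2hi replicate 3, to 5 without replicate 1 of that group and to 4 without WT CCR2hi replicate 1, and was 7 without both Bhlhe41Cre libraries numbered 3. Cd14, Clec7a and Nlrp3 were called in all 12 fits that left out 1 library. Tlr13 was lost without Bhlhe41Cre CCR2hi replicate 3 (adjusted p = 0.0528), and Tlr2 without that library or WT CCR2hi replicate 1 (adjusted p = 0.085 and 0.0532). Myd88 was lost without Bhlhe41Cre CCR2hi replicate 1 or 3 or WT CCR2hi replicate 1 (adjusted p = 0.0973, 0.0932 and 0.0607). Tlr9 was lost without Bhlhe41Cre CCR2low replicate 3, WT CCR2low replicate 1 or 2, Bhlhe41Cre CCR2hi replicate 1 or 3, or WT CCR2hi replicate 1 (adjusted p = 0.0623, 0.0543, 0.0578, 0.125, 0.115 and 0.0776). Nod2 was lost in 9 of the 12 fits, with adjusted p up to 0.194 without Bhlhe41Cre CCR2hi replicate 1, and held without Bhlhe41Cre CCR2low replicate 2 or WT CCR2low replicate 1 or 3.

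In TPM, the order of levels that joined both factors put Bhlhe41Cre CCR2hi between the CCR2low groups and WT CCR2hi for most members. Relative to the pan-leukocyte level, its mean was the highest of the 4 groups for Cd14 (957%), Nlrp3 (171%), Clec7a (89.3%) and Nod2 (20.7%). It was the lowest for Tlr7 (17.8%), and neither for the other members. Set against WT CCR2low, 6 members were lower in Bhlhe41Cre CCR2hi (Cd14, Tlr2, Tlr7, Tlr9, Tlr13 and Nlrp3) and 1 was higher (Nod2, 1.07 ± 0.17, adjusted p = 0.000137), with 28.2% and 30.5% of all genes called lower and higher. That contrast was fitted under TMM only.

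**Figure D4:**
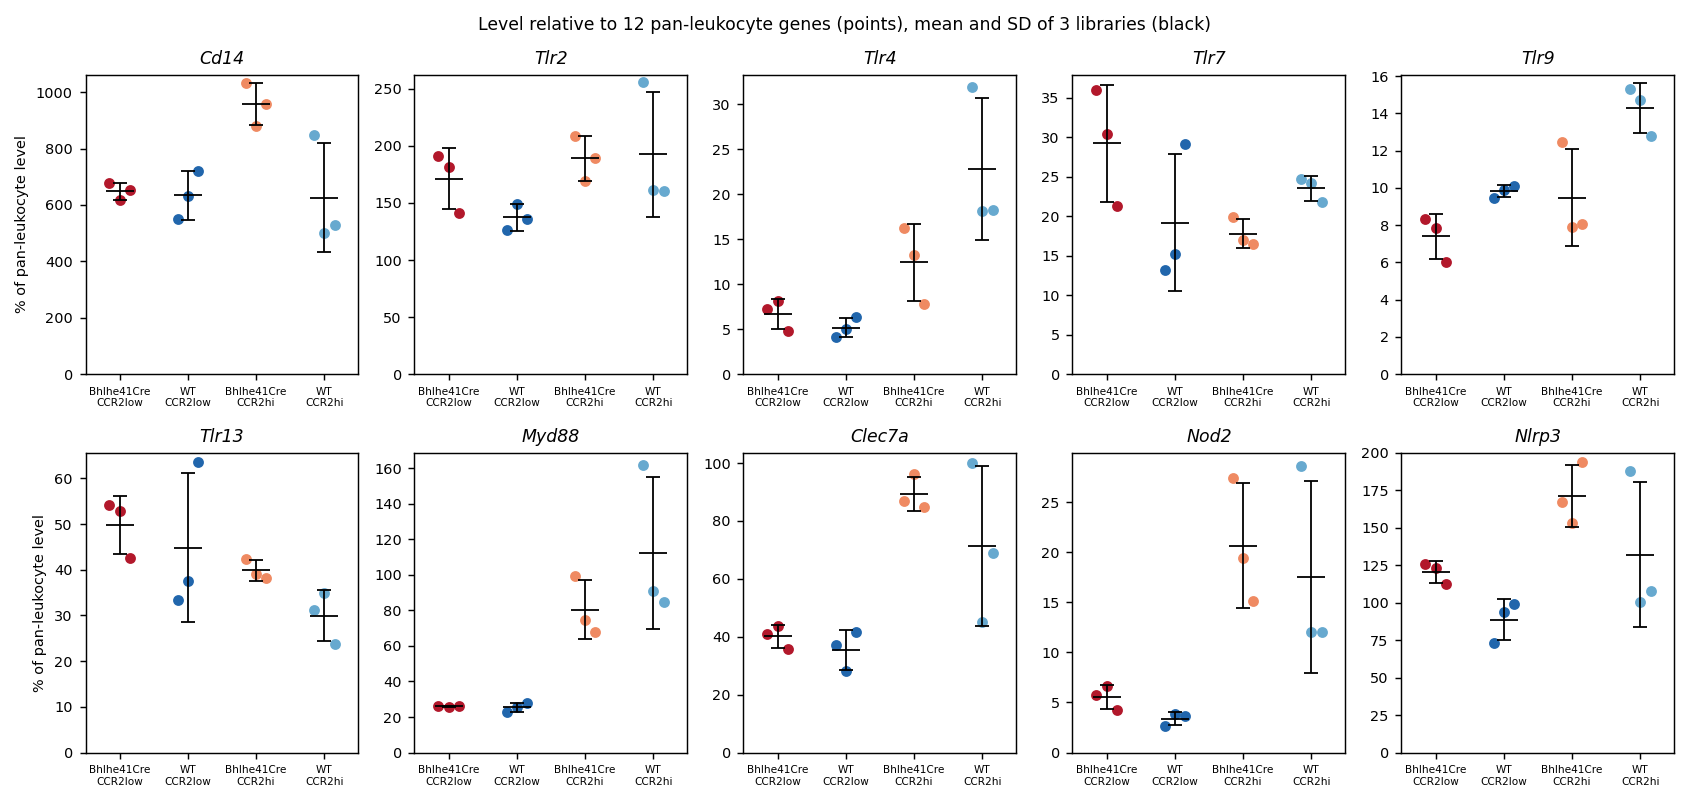
Level of each gene as a percentage of the level of the 12 pan-leukocyte genes in the same library, 1 point per library, with the mean and SD of 3 libraries in black. Myd88, Nod2, Tlr4 and Clec7a are higher relative to leukocyte genes in the CCR2hi groups, and WT CCR2hi replicate 1 is the highest of its group for every gene but Tlr13. The ratio does not show which cells made a transcript, and the CCR2hi libraries also held more fibroblast gene counts.

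Relative to the pan-leukocyte level, Myd88 was at 26.0 ± 0.438% in Bhlhe41Cre CCR2low and 25.4 ± 2.43% in WT CCR2low, against 80.5 ± 16.6% in Bhlhe41Cre CCR2hi and 112 ± 42.9% in WT CCR2hi (SD, n = 3 each). Nod2 was at 5.55 ± 1.19% in Bhlhe41Cre CCR2low and 3.38 ± 0.62% in WT CCR2low, against 20.7 ± 6.27% in Bhlhe41Cre CCR2hi and 17.5 ± 9.6% in WT CCR2hi. For Tlr13 the means stayed closer, at 49.9 ± 6.37%, 44.9 ± 16.4%, 39.9 ± 2.23% and 29.9 ± 5.62% in the same 4 groups. The wide SD in WT CCR2hi comes with replicate 1, the library with the fewest leukocyte and macrophage counts. Fibroblast genes held 4.297 to 5.445% of counts in Bhlhe41Cre CCR2hi and 7.795 to 8.733% in WT CCR2hi. Which cells the members' reads came from was not tested, so these percentages are not levels per leukocyte.

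Among the members, Tlr2 and Nlrp3 were closest over the 12 libraries, with a root mean square difference of 0.23 on centred log2 CPM, followed by Cd14 and Nlrp3 (0.23) and Cd14 and Tlr2 (0.28). Tlr13 and Nod2 were farthest apart, at 1.31. Among the other 14954 genes, the course most like that of Tlr13 was that of Itgam (0.17), the integrin chain CD11b, and the next but 1 was that of Itgb2, its partner chain (0.21). Both are in the cell scaling lists. Cd14 was closest to Pik3ap1 (0.19), which encodes the TLR and B cell adaptor BCAP, and Nod2 to Icam1 (0.18), an adhesion molecule. The nearest of Tlr2 was Emilin2 (0.12), that of Tlr9 Gmip (0.15), that of Tlr7 Snx5 (0.21) and that of Nlrp3 Gpr35 (0.17). Clec7a was nearest to Clp1 (0.22) and Tlr4 to Sprtn (0.10). Myd88 was nearest to Rpl17, Rps23 and Eef1a1 (0.10, 0.10 and 0.11), genes of the translation machinery. These distances are descriptions over libraries that share gate, genotype and cell content.

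The other genes of the pathways were read from 7 lists, with the changes in Bhlhe41Cre against WT given under TMM. Of all genes tested, 16.4% were called higher and 26.7% lower in CCR2low under TMM, and 6.59% and 10.1% on the pan-leukocyte scale. In CCR2hi these shares were 16.2% and 15.9% under TMM, and 1.56% and 76.5% on the pan-leukocyte scale. Among 6 other TLRs tested, none was called between genotypes in CCR2low, while in CCR2hi Tlr6, the partner of TLR2, rose (1.504 ± 0.178, adjusted p = 6.12e-05) and Tlr5, the flagellin receptor, fell (-0.96 ± 0.32, adjusted p = 0.0338). Tlr6 was at 0.27 on the pan-leukocyte scale, where none of the 6 was called higher in CCR2hi and 4 were lower. Of 11 co-receptor and trafficking genes, 4 rose and 4 fell in Bhlhe41Cre CCR2low. Hsp90b1, the chaperone that folds TLRs (1.37), and Cd36, a scavenger receptor that works with TLR2 (1.34), rose, while Tril, a TLR accessory protein (-1.40), and Lbp, the lipopolysaccharide-binding protein (-1.05), fell. In CCR2hi 3 of the 11 rose, among them Cd180 (1.33), a TLR4-like regulator, and Ly86 (0.70), its partner MD-1, and Tril fell (-1.51). With pan-leukocyte scaling none of the 11 was called higher and 6 lower in CCR2hi, with Cd180 at 0.13 and Ly86 at -0.45.

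Of 20 adaptors and kinases, 6 rose and 3 fell in Bhlhe41Cre CCR2low, among them Irak2 (0.84), Ticam1 (0.82), which encodes the adaptor TRIF, Tab3 (1.60) and Traf3 (0.88), all higher. In CCR2hi 8 rose and 1 fell, with Pik3ap1 (1.74), Irak2 (1.59), Ticam2 (1.09) and Ticam1 (0.66) higher. Irak2 encodes a kinase-like protein recruited by MyD88. After pan-leukocyte scaling none of the 20 was called higher and 12 lower in CCR2hi, where Pik3ap1 was at 0.53, Irak2 at 0.32, Ticam2 at -0.07 and Ticam1 at -0.58. In CCR2low 3 were still called higher on that scale and none lower. Negative regulators rose for 4 of 11 genes in CCR2low and 7 of 11 in CCR2hi, and none fell. Tnip1, a partner of A20, was higher in both gates (1.23 and 1.47), as were Tollip (0.80 and 0.73) and Peli1 (1.33 and 1.24). Tnip3 rose in CCR2low (2.08) and Irak3, which encodes IRAK-M, in CCR2hi (1.01). Scaled to the pan-leukocyte genes, 3 of the 11 were called higher and none lower in CCR2low, but in CCR2hi none was higher and 4 were lower. There Tnip1 was at 0.21, while Tollip (-0.54), Irak3 (-0.22) and Peli1 (-0.061) turned negative.

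The C-type lectin receptor list held the genes with the largest changes of the 7 lists in both gates. Of its 12 genes, 5 rose and 1 fell in Bhlhe41Cre CCR2low, and 9 rose and none fell in CCR2hi. Clec4e, the receptor Mincle, rose by 2.65 ± 0.35 (adjusted p = 0.000137) in CCR2low and 3.92 ± 0.38 (adjusted p = 1.21e-05) in CCR2hi. Clec4d, its partner MCL, rose by 1.23 ± 0.17 (adjusted p = 0.000141) and 3.96 ± 0.19 (adjusted p = 1.18e-07). With pan-leukocyte scaling these were 2.75 and 1.30 in CCR2low, and 2.48 and 2.62 in CCR2hi. Downstream, Malt1, a paracaspase, rose in CCR2low (3.07) and Card9, its scaffold partner, fell (-0.90), while Syk (1.28) and Bcl10 (1.02) rose in CCR2hi. Syk was at 0.028 on the pan-leukocyte scale and Bcl10 at -0.28 in CCR2hi, and 2 of the 12 genes were called higher and 2 lower. Neutrophils also express Clec4e and Clec4d, and the neutrophil list rose in CCR2hi as given above.

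Of 21 NOD and inflammasome genes, 5 rose and 4 fell in Bhlhe41Cre CCR2low, and 8 rose and 2 fell in CCR2hi. Mefv, which encodes pyrin, rose in both gates (1.89 and 2.45), as did Casp4, the caspase of the non-canonical inflammasome (2.01 and 1.85). P2rx7, the ATP-gated channel upstream of NLRP3, was lower in both (-0.95 and -0.83). Txnip fell in CCR2low (-1.87) and Il1b, the cytokine that caspase-1 matures, rose in CCR2hi (1.73). Pan-leukocyte scaling left 3 of the 21 called higher and 3 lower in CCR2low, and 1 higher and 13 lower in CCR2hi. Mefv was at 1.14, Casp4 at 0.55 and Il1b at 0.501 on that scale in CCR2hi. Of 11 cytosolic nucleic acid sensors, 5 rose and 2 fell in CCR2low, led by Ifih1 (1.86), which encodes MDA5, and Ifi204 (1.26), and 6 rose and 1 fell in CCR2hi, with Ifi204 (1.43) and Ikbke (0.95) higher and Ddx58, which encodes RIG-I, lower (-0.49). With pan-leukocyte scaling 4 of these 11 were called higher and none lower in CCR2low, while in CCR2hi none was higher and 5 were lower, with Ifi204 at 0.21 and Ikbke at -0.28.

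**Figure D5:**
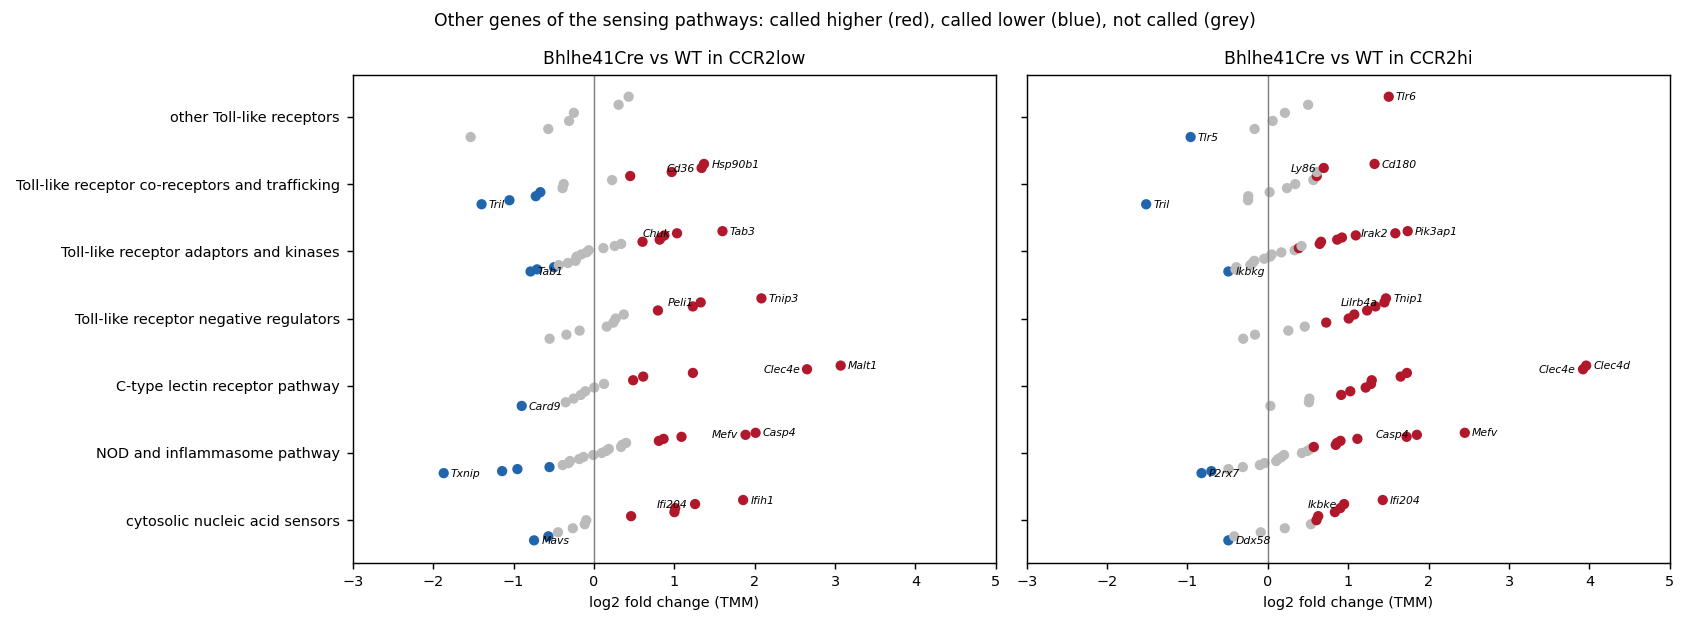
Log2 fold change (TMM) of each tested gene of 7 sensing pathway lists between genotypes, 1 point per gene, in CCR2low (left) and CCR2hi (right). Malt1 at 3.07 in CCR2low and Clec4d and Clec4e at 3.96 and 3.92 in CCR2hi lie farthest right.

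Over the 92 tested genes of these 7 lists, 29 were called higher and 14 lower in Bhlhe41Cre CCR2low under TMM, and 19 and 6 on the pan-leukocyte scale, to be read against the shares of all genes given above. In CCR2hi 42 were higher and 6 lower under TMM, and 3 and 46 on the pan-leukocyte scale, where 76.5% of all genes were called lower. Between the gates, 62 of the 92 were higher and 6 lower in CCR2low in Bhlhe41Cre, and 64 and 9 in WT. Of all genes tested, 24.9% were called higher and 29.1% lower in Bhlhe41Cre, and 29.8% and 30.0% in WT. On the pan-leukocyte scale the counts were 7 and 43 in Bhlhe41Cre, and 3 and 65 in WT. The shares of all genes on that scale were 1.56% and 80.4% in Bhlhe41Cre, and 1.39% and 92.6% in WT. Tlr8, an X-linked neighbour of Tlr7, was higher in CCR2low by 2.80 ± 0.27 (adjusted p = 1.42e-06) in Bhlhe41Cre and by 2.43 ± 0.26 (adjusted p = 3.46e-06) in WT. On the pan-leukocyte scale Tlr8 was at 1.37 in Bhlhe41Cre but -0.163 in WT. Tlr3, the receptor for double-stranded RNA, was lower in CCR2low in WT (-0.91 ± 0.18, adjusted p = 0.000766), and at -3.69 on the pan-leukocyte scale.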

How the data were processed

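RNA of 12 libraries (4 groups of 3) was measured by bulk sequencing. Per the submitters' processing notes, the tools were CASAVA 1.8, STAR 2.4.0j and RSEM, and the build mm10; no source used here gives the annotation or the strand protocol. The authors deposited RSEM expected counts per Ensembl gene, here whole numbers (0 values were not whole), and TPM. Total counts ran from 17.7 to 20.83 M per library (1 M is 1000000), with 3 libraries per group setting the precision. Columns named KD were taken as Bhlhe41Cre, the only other genotype, and matched by gate and replicate number; groups come from sample titles, since other label fields of those samples are shifted.

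Counts were tested in R 4.3.3 with edgeR 4.0.16 (TMM, filterByExpr, glmQLFit with robust dispersion, glmQLFTest, a mean per group, all 12 libraries, 8 residual degrees of freedom), two-sided, with Benjamini-Hochberg adjustment over 14964 genes and calls at adjusted p under 0.05. The 5 comparisons are the gates per genotype, the genotypes per gate and their interaction, (CCR2low minus CCR2hi in Bhlhe41Cre) minus the same in WT. The contrast of Bhlhe41Cre CCR2hi with WT CCR2low was added after the data were seen. Exact tests of 3 against 3 cannot go below p = 0.1 and were not used. P-values measure the spread between libraries, which is not stated to be between animals. Alternatives were RLE, library size, macrophage identity and pan-leukocyte scaling, DESeq2 1.42.0, limma 3.58.1 (voom, and log2(TPM + 1) or log2(TPM + 0.1)), other filters, a 1.5-fold minimum, a replicate block and left-out libraries. Positions are from GENCODE release 21 (GRCm38) and upstream sequences from RefSeq (GRCm38.p6).

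Residuals of same-numbered libraries correlated at 0.227, 0.119 and 0.396 between the Bhlhe41Cre gates, all over 0.1. Numbers may thus be paired there, which is read from the data and not the labels. Bhlhe41Cre CCR2low replicate 2 correlated more with Bhlhe41Cre CCR2hi replicate 1 (0.215), so pairs by number are not established. The main fit holds no pairing, and the replicate block is given as an alternative. Named genes are the members, the up to 4 called genes per pathway list and comparison with the smallest p, a part of which is printed, and the 3 genes nearest to each member. Tlr3 and Tlr8 fall under this rule. Members and lists were chosen with earlier results of these data known.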

Additional observations from a re-analysis of the deposited data

Results flagged for a closer look

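The CCR2low minus CCR2hi difference differed between Bhlhe41Cre and WT by the interaction test (log2 scale, edgeR over all genes) for 8 of the 10 genes. It was more negative in Bhlhe41Cre for Cd14 (-1.87), Tlr13 (-1.48), Clec7a (-1.45), Nlrp3 (-1.27), Tlr9 (-1.04), Tlr2 (-0.97), Nod2 (-0.88) and Myd88 (-0.78). Of these, Nod2 is the 1 gene whose gate difference was called in opposite directions, at -0.44 in Bhlhe41Cre and 0.44 in WT. Both of these calls were lost with RLE scaling, DESeq2, no filter and the replicate block, and the WT value was 0.0847 (adjusted p = 0.727) on log2(TPM + 1) by limma. The median interaction was -1.24 for the 12 pan-leukocyte genes and -0.18 for all genes. None of the 8 was called once libraries were scaled to the pan-leukocyte or to the macrophage identity genes.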

How the results depend on the processing

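The results depend most on what the libraries are scaled to. Between the gates, macrophage identity scaling called 13733 genes in Bhlhe41Cre and 14358 in WT, pan-leukocyte scaling 12267 and 14067, and a 1.5-fold minimum 4928 and 5509, against 8094 and 8949 under TMM; pan-leukocyte scaling left 4 members called in WT. Between genotypes in CCR2hi (4808 genes, 9 members) these gave 10546, 11675 and 1329 genes, with 1 and 3 members on the cell scales. In CCR2low (6441 genes, 2 members) they gave 2376, 2503 and 2486 genes and 0 members each, while RLE, log2(TPM + 1), log2(TPM + 0.1) and the replicate block left 1 member. For the interaction (1884 genes, 8 members) they gave 5252, 7621 and 478 genes with 0, 1 and 3 members, and the TPM fits gave 1181 and 968 genes. Of called genes, 46.1% were higher between the Bhlhe41Cre gates, 50.4% between genotypes in CCR2hi and 37.7% for the interaction, against 32.0%, 61.8% and 19.5% with library size scaling; RLE gave 47.8% for the interaction. On the macrophage scale the share was 0.495% and 0.78% between the gates of Bhlhe41Cre and WT, 2.56% in CCR2hi and 97.6% for the interaction, and on the pan-leukocyte scale 1.91%, 1.48%, 2.00% and 98.3%.

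Members turned direction on the cell scales. Between the WT gates, macrophage scaling gave -0.49 for Cd14, -0.99 for Tlr2, -2.65 for Tlr4, -0.81 for Tlr7, -1.03 for Tlr9, -2.66 for Myd88, -1.52 for Clec7a, -2.88 for Nod2 and -1.09 for Nlrp3; pan-leukocyte scaling gave -0.49 for Tlr2, -2.13 for Tlr4, -0.29 for Tlr7, -0.54 for Tlr9, -2.14 for Myd88, -1.003 for Clec7a, -2.36 for Nod2 and -0.57 for Nlrp3. Between the Bhlhe41Cre gates, macrophage scaling gave -1.17 for Cd14, -0.75 for Tlr2, -1.49 for Tlr4, -0.96 for Tlr9, -0.28 for Tlr13, -1.76 for Clec7a and -1.12 for Nlrp3, and pan-leukocyte scaling -0.56, -0.14, -0.89 and -0.36 for Cd14, Tlr2, Tlr4 and Tlr9, -1.15 for Clec7a and -0.51 for Nlrp3. Between genotypes in CCR2hi, macrophage scaling gave -0.74 for Tlr4, -0.26 for Tlr7, -0.44 for Tlr9 and -0.35 for Myd88, and pan-leukocyte scaling -0.0261 for Tlr2, -0.87 for Tlr4, -0.41 for Tlr7, -0.59 for Tlr9 and -0.48 for Myd88. The interaction turned to 0.24 and 0.35 for Tlr2 on the macrophage and pan-leukocyte scales, 1.16 and 1.24 for Tlr4, 0.92 and 1.01 for Tlr7, 0.0686 and 0.18 for Tlr9, 0.42 and 0.51 for Myd88 and 0.39 and 0.47 for Nod2, and to 0.0645 for Nlrp3 on the pan-leukocyte scale.

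Values near 0 also changed sign. Between genotypes in CCR2low, Cd14 and Myd88 were at 0.0745 and 0.0697 with macrophage scaling, 0.033 and 0.0301 with pan-leukocyte scaling, 0.0382 and 0.0313 with RLE, 0.0382 and 0.0312 with DESeq2, 0.12 and 0.11 without a filter, and 0.13 and 0.12 with only the groups compared. The interaction of Tlr4 was 0.0633 with RLE, 0.0631 with DESeq2, 0.086 and 0.0919 on the TPM scales and 0.17 without a filter, where that of Tlr7 was 0.0116. With 1 library left out, the genotype difference in CCR2low ran from -0.0538 to 0.17 for Cd14, -0.0496 to 0.165 for Myd88, -0.0116 to 0.32 for Tlr13 and -0.0261 to 0.297 for Clec7a, and the interaction from -0.12 to 0.29 for Tlr4 and -0.35 to 0.23 for Tlr7.

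With 1 library left out, called genes ran from 7095 to 8362 between the Bhlhe41Cre gates (7 to 8 members) and 7901 to 9333 between the WT gates (8 to 10), from 4657 to 6524 between genotypes in CCR2low (1 to 5) and 3260 to 5543 in CCR2hi (7 to 9), and from 871 to 2801 for the interaction (3 to 8). Same-numbered libraries did not pair in WT (residual correlations -0.064, 0.028 and -0.048) or between genotypes (-0.208, -0.064 and -0.258 in CCR2low, 0.104, -0.164 and 0.147 in CCR2hi). The replicate block moved Nod2 between the WT gates to adjusted p = 0.0617 and Tlr9 between genotypes to 0.0669 in CCR2low and 0.0668 in CCR2hi, and changed no other member call than these and that of Nod2 between the Bhlhe41Cre gates. For the gates and the interaction the block was the number within a genotype. For the genotype comparisons it joined the same number across all groups, a link that the labels do not give. For the interaction no fit with only the groups compared exists apart from that with all 4. The causes were not tested. Nod2, Tlr9 and Tlr4 were covered by 136 to 865 counts per library. The lowest member count in a CCR2low library was 237, for Nod2.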
